A study of Mus musculus with 9 samples.

Results

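The genes described here are 45 genes of DNA replication and S phase, chosen by name: every row of the deposited table whose gene name was in the list was taken, and all 45 were found among 43346 genes and passed the filter on low counts that left 16877 genes. They cover origin licensing, activation of the replicative helicase, the sliding clamp and its loader, the polymerases and primase, Okazaki fragment maturation, deoxynucleotide synthesis, copying of chromatin and DNA methylation, E2F transcription factors, entry into S phase, and the checkpoint and repair of replication forks. The RNA came from lung fibroblasts of Col1a1-GFP transgenic mice (male, FVB background), aged 18 months by the protocol and 72 weeks by the sample labels, that had received 1 intratracheal dose of saline (aged sham, n = 4) or of bleomycin (aged bleo, n = 5). On day 30, lung cells that were GFP+, CD45-, CD31-, and EpCAM- were sorted and their polyadenylated RNA was sequenced. Bleomycin breaks DNA and scars the lung, and GFP under the collagen I promoter marks cells in which that promoter is active, not all fibroblasts. The comparison asks how these genes differ between aged fibroblasts after injury and after saline. Young mice were not analysed here. The libraries are taken as 1 mouse each, as the group sizes in the protocol give them. The p-values weigh the difference between the groups against the spread between libraries of the same group.

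Before S phase, the origin recognition complex, CDC6, and CDT1 load the MCM2-7 ring onto origins, and CDC45 and GINS then turn it into a moving helicase. Cyclin E with its kinase frees E2F factors, and E2F1, E2F2, and E2F3 activate many genes of replication, while E2F7 and E2F8, themselves E2F targets, repress them later in S phase. Fibroblasts of the uninjured adult lung rarely divide, and fibroblasts are known to proliferate after lung injury.

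The promoters show which of the members carry the kind of sequence that E2F factors bind. RefSeq promoters (GRCm38.p6, 250 bases before to 50 bases after the start) were found for 39 of the 45 members and not used for Gins2, Pole, Gins1, Ccne2, Mcm4, and Exo1. The 160 bases before the start of 6 members are given 5′ to 3′ on the strand of the gene, each with the letters TTTCCCGC, TTTCGCGC, TTTGCCGC, or TTTGGCGC, or their reverse complements, in capitals. Mcm5, Mcm6, Orc1, and Cdc25a were higher in aged bleo by the test described after the sequences, and Pola1 and Rfc3 are shown because they hold the same letters and did not pass that test.
Mcm5, chr8:75109349-75109508, plus strand: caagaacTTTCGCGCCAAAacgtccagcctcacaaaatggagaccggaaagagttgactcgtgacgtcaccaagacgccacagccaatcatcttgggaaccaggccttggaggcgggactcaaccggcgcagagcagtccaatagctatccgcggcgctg
Mcm6, chr1:128359706-128359865, minus strand: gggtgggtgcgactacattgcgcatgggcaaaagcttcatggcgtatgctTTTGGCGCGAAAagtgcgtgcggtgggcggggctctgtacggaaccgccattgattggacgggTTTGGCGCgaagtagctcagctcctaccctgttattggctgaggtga
Orc1, chr4:108579294-108579453, plus strand: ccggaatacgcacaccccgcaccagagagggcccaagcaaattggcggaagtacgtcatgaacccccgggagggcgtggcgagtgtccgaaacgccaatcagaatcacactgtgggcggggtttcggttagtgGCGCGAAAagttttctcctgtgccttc
Cdc25a, chr9:109875419-109875578, plus strand: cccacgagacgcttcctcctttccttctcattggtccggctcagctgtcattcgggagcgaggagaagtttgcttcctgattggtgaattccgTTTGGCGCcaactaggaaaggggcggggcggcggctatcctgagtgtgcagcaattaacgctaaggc
Pola1, chrX:93632156-93632315, minus strand: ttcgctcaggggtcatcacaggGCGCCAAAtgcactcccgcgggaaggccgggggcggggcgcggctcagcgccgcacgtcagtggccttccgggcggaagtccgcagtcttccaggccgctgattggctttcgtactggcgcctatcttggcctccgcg
Rfc3, chr5:151651209-151651368, minus strand: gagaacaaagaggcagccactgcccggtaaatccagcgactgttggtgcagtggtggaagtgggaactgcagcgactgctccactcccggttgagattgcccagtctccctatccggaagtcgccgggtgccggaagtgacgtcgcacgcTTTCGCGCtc

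In the Mcm5 promoter, 2 of these matches overlap, and in the Mcm6 promoter 2 overlap and a further match lies closer to the start. Over the whole promoter, 18 of 39 members (46.2%) held at least 1 match, beside 2.6% of the 27025 genes of the promoter table and 4.39% of the 11135 tested genes with a promoter. The share was 50% of the 24 members that were higher in aged bleo and had a promoter (12 of 24), and 40% of the 15 that did not pass the test (6 of 15). Of 24 promoters of a list of mitosis genes, 1 (4.17%) held a match. The letters TTTGAA or TTCGAA, a cell cycle element known from mitosis genes, were in the promoters of 20.5% of the members, 75% of the mitosis genes, and 21.7% of all genes of the promoter table. Of the tested genes with a promoter, 16.4% held these letters. The box CCAAT, on either strand, was in those of 64.1% of the members and 41.1% of all genes. With only the 250 bases before the start, TTTGAA or TTCGAA was in 41.7% of the mitosis genes, beside 19.6% of all genes. An E2F match was then in 30.8% of the members, beside 2.16% of all genes. Of the tested genes with a promoter, 14.7% held TTTGAA or TTCGAA there and 3.66% an E2F match. A match is a stretch of letters and not a measured binding site. The list of members was drawn up to include E2F targets, so its high share of matches follows in part from that choice.

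Genes were called when edgeR's quasi-likelihood test gave an FDR (the Benjamini-Hochberg adjusted p-value over the 16877 genes) under 0.10 and a fold change over 1.5. By this rule, 25 of the 45 members were higher in aged bleo and 0 were lower, beside a background of 12.3% of all tested genes called higher and 11.5% called lower. No member was called lower by DESeq2 or limma-trend either. Gins2 was lower at an FDR of 0.0178 but by less than 1.5-fold, and no other member was lower even at an unadjusted p under 0.05. The members' median log2 fold change was 0.76 (range -0.30 to 2.95), beside a median of 0.01 over all tested genes, and 41 of 45 were higher on average. The called members spread from 0.60 for Cdc25a to 2.95 for E2f8, and their FDR from 0.00671 to 0.0840. A complete separation of the groups was no more usual among the members than elsewhere, since every aged bleo library exceeded every aged sham library in 8 members (17.8%: Cdc6, Rfc5, Tyms, Chaf1a, E2f8, Ccne1, Cdc25a, and Exo1) and in 16.1% of all tested genes. Exo1 passed the filter on low counts by its aged bleo libraries, since its mean count in aged sham was under 25. The depth was 49921946 to 68260600 counts per library, at which 3 counts correspond to 0.0409 to 0.0605 CPM (counts scaled to library size by TMM, the unit of all levels unless FPKM is named).

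**Figure D1:**
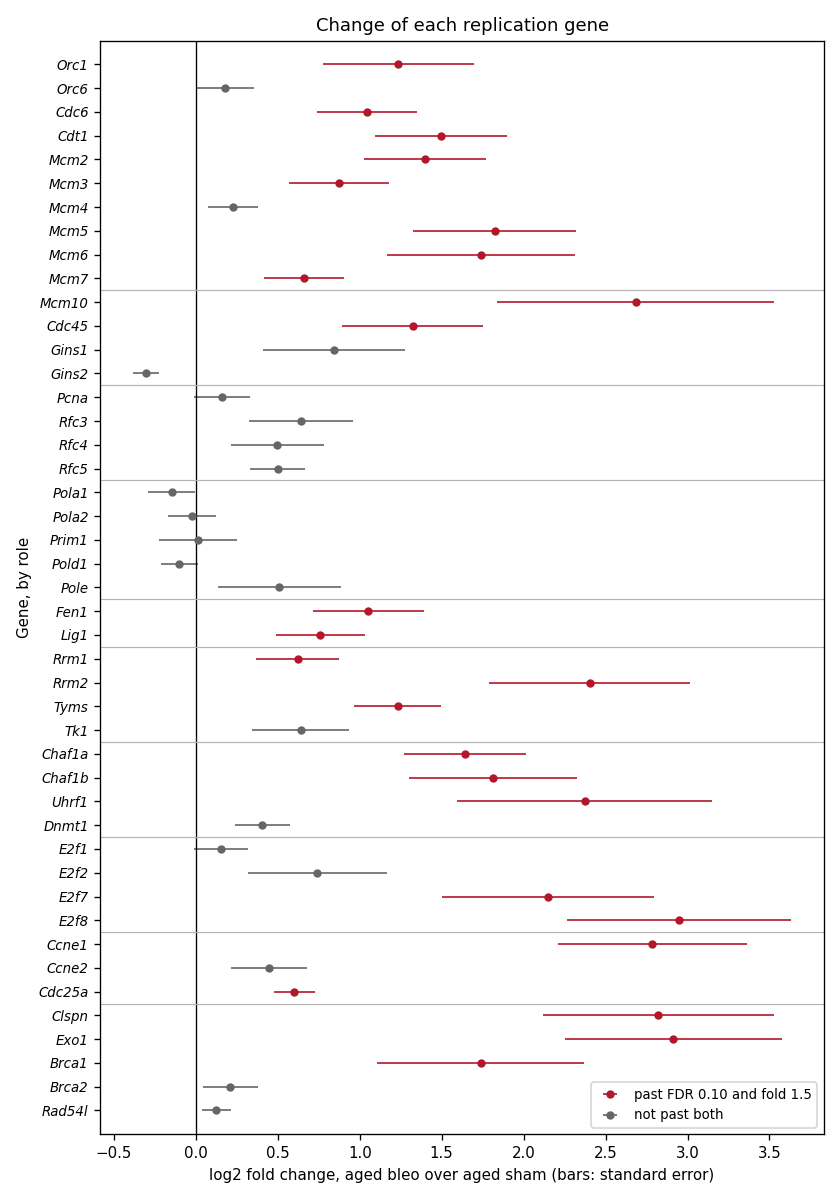
Log2 fold change (x axis, aged bleo over aged sham) with its standard error for each of the 45 genes (y axis, grouped by role), in red where FDR is under 0.10 and the fold change over 1.5. The 25 red genes lie between 0.60 and 2.95 and are spread over 8 of the 10 roles, while the 9 genes of the clamp, its loader, the polymerases, and primase are all grey.

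The aged bleo libraries differed widely from each other. Aged bleo 4 was the highest of the 5 in 39 members and aged bleo 5 in the other 6, and these libraries were the upper pair in 43 of 45 members. Aged bleo 2 was the lowest in 41. On the scale of log2 CPM relative to each gene's aged sham mean, the members' median was 0.39 in aged bleo 1, 0.00 in aged bleo 2, 0.58 in aged bleo 3, 1.54 in aged bleo 4, and 1.27 in aged bleo 5. Of the uninjured libraries, aged sham 1 stood at 0.27 and aged sham 2 to 4 at -0.15 to -0.05. Aged sham 1 was the highest aged sham library in 36 members and exceeded aged bleo 2 in 36. Without aged bleo 4 and aged bleo 5, a choice made after seeing the data, 11 members were called higher. They were Cdt1, Mcm2, Mcm5, Rrm2, Tyms, Chaf1a, Chaf1b, E2f8, Ccne1, Clspn, and Exo1. In that setting, 9.88% of all tested genes were called higher, beside 12.3% with all libraries. With 1 library left out, the called members numbered 17 (without aged sham 2, 3, or 4) to 29 (without aged bleo 2). The share of all tested genes called higher then ranged from 11.2 to 13.7%. Of the 25 called members, 15 kept their call throughout.

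**Figure D2:**
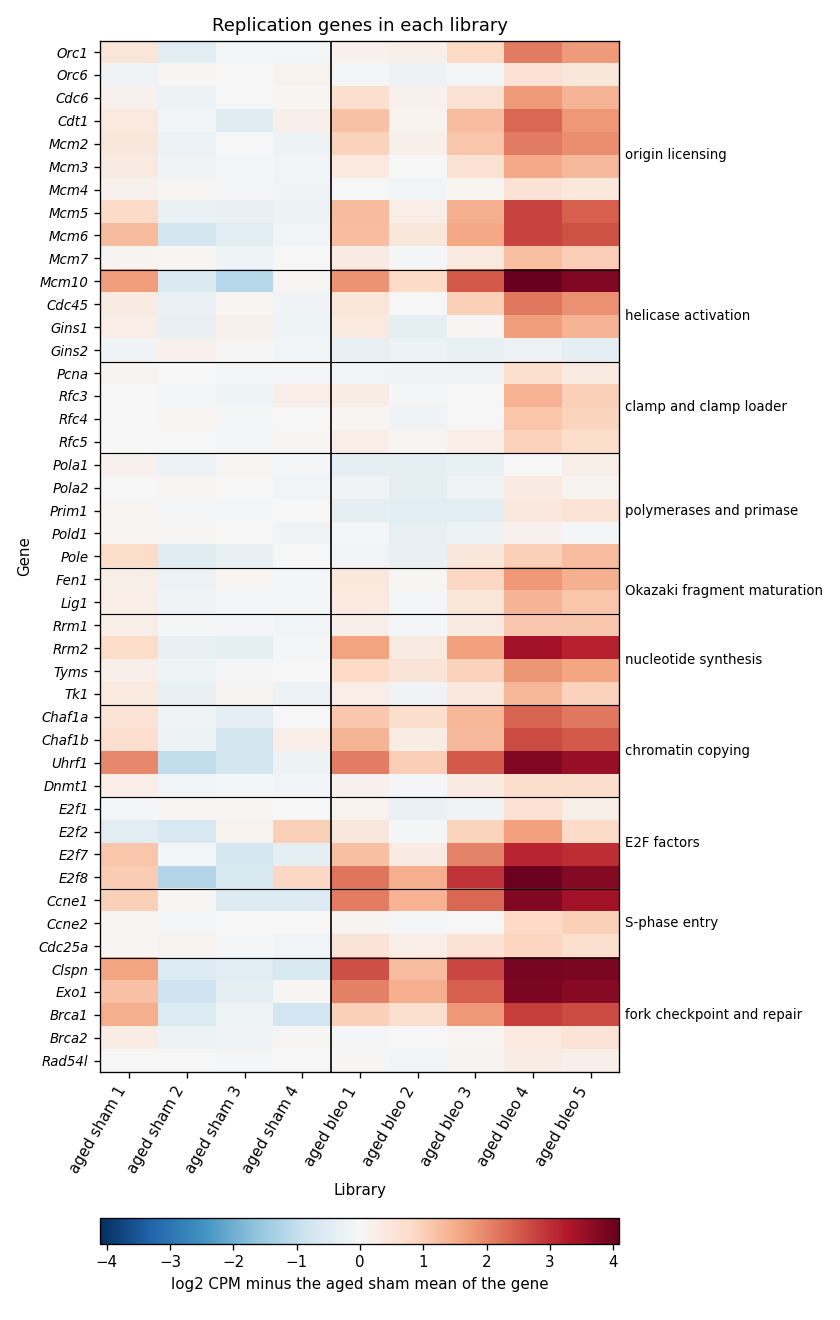
Log2 CPM of each of the 45 genes (y axis, by role) in each of the 9 libraries (x axis), minus the gene's aged sham mean, with red above and blue below that mean. Aged bleo 4 and 5 are the reddest columns in nearly every role, aged bleo 2 is close to the aged sham columns, and aged sham 1 is redder than aged sham 2 to 4.

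Markers of other cells were measured beside these differences. The 8 fibroblast markers summed to 24845 to 30577 CPM in aged sham and 54995 to 72429 CPM in aged bleo. Of them, 4 were called higher (Col1a1, Col1a2, Col3a1, and Pdgfrb) and 2 lower (Dcn, log2 fold change -1.54, FDR 0.00667, and Tcf21, -1.10, FDR 0.0121). Pdgfra (-0.43, FDR 0.112) and Lum (-0.18, FDR 0.601) were not called. Among the injured libraries, Pdgfrb, Dcn, Tcf21, Pdgfra, and Lum were lowest in aged bleo 4 and 5. Col1a1 was highest in these libraries, and Col1a2 and Col3a1 followed neither order. Pdgfra, for example, was at 726, 865, 799, 440, and 550 CPM in aged bleo 1 to 5. Of 9 macrophage markers, 5 were called higher, and their sum was 169 to 299 CPM in aged sham and 512, 719, 605, 1653, and 930 CPM in aged bleo 1 to 5. The 5 pan-leukocyte markers summed to 96.3 to 365 CPM in aged sham (365 in aged sham 4) and to 96.8, 110, 152, 566, and 142 CPM in aged bleo 1 to 5, with 1 of 5 called higher. Neutrophil markers (0 of 5 tested called) summed to 150 to 924 CPM in aged sham and 70.1 to 821 CPM in aged bleo, and T and NK cell markers (1 of 5 tested higher) to 3.52 to 10.8 and 1.34 to 23.7 CPM, with no count of Cd3g in aged bleo 1. All 4 B cell markers were lower in aged bleo, with sums of 3.21 to 10.6 CPM (10.6 in aged sham 1) against 0.930 to 2.42 CPM. Endothelial markers reached at most 16.9 CPM in any library, epithelial markers 81.3, erythroid markers 16.0, and mesothelial markers 87.7 CPM. Smooth muscle and pericyte markers summed to 2468 to 4949 CPM in aged sham and 1791 to 2876 CPM in aged bleo. Without aged sham 4 and aged bleo 4, the libraries of each group richest in pan-leukocyte markers (a choice made after seeing the data), 13 members were called higher. In that setting, 10.5% of all tested genes were called higher. Aged bleo 4 was also the highest injured library in 39 members, so this setting cannot separate its leukocyte content from the loss of that library. Without aged bleo 4 alone, 19 members and 11.2% of all tested genes were called higher. The part of other cells in the member levels was not tested. In sorted bulk RNA, a larger share of cycling cells and more RNA of these genes per cell cannot be told apart.

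Of the 10 licensing members, 8 were higher in aged bleo (median log2 fold change 1.14). Mcm5, a subunit of the MCM2-7 ring (ENSMUSG00000005410, chromosome 8, 75109528 to 75128439), was at 9.92, 4.69, 4.64, and 4.88 CPM in aged sham 1 to 4 and at 13.9, 6.86, 15.9, 38.9, and 31.2 CPM in aged bleo 1 to 5. Only aged sham 1 overlapped the injured libraries, as it exceeded aged bleo 2. The log2 fold change was 1.82 (SE, standard error, 0.50, FDR 0.0207). Mcm6, another subunit of the ring (ENSMUSG00000026355, chromosome 1, 128331590 to 128359664), was at 15.7, 3.76, 4.69, and 5.85 CPM in aged sham and at 15.4, 8.76, 19.2, 43.3, and 38.8 CPM in aged bleo. Here aged sham 1 lay above both aged bleo 1 and aged bleo 2, and the log2 fold change was 1.74 (SE 0.57, FDR 0.0418), or 2.40 without aged sham 1. The call of Mcm6 was lost without aged sham 2, 3, or 4 (FDR 0.101 to 0.105).

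The other licensing members that were higher were Mcm2 (log2 fold change 1.40, FDR 0.0186), Cdt1, the MCM loading factor (2.82-fold, FDR 0.0195), Cdc6, its partner (log2 fold change 1.04, FDR 0.0273), Mcm3 (0.87, FDR 0.0521), Mcm7 (0.66, FDR 0.0595), and Orc1 (1.24, FDR 0.0632). Cdc6 had no overlap between the groups, at 2.29 to 2.97 CPM in aged sham and 3.02 to 8.90 CPM in aged bleo. The calls of Mcm3 (without aged sham 2, 3, or 4 or aged bleo 5, FDR 0.113 to 0.120), Mcm7, and Orc1 each depended on several libraries. Mcm7 lost its call without aged sham 2, 3, or 4 or aged bleo 4 or 5 (log2 fold change 0.46 to 0.69, FDR 0.0986 to 0.146), and Orc1 without the same libraries (0.86 to 1.23, FDR 0.120 to 0.148). Exons of Mcm7 are overlapped over 12.6% of their bases by other genes, mainly Ap4m1.

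Orc1 and Mcm4 showed the extremes of level within their complexes. Orc1 encodes the largest subunit of the origin recognition complex and was its scarcest by FPKM, a measure per transcript length, at 0.0816 to 0.157 FPKM in aged sham, where Orc2 to Orc6 ranged from 2.22 to 3.13 FPKM. In aged bleo, Orc1 was at 0.127, 0.126, 0.195, 0.532, and 0.389 FPKM, so that only aged bleo 3, 4, and 5 exceeded every aged sham library. Orc2, Orc3, Orc4, and Orc5 did not pass the test, with log2 fold changes of -0.14 to 0.11, nor did Orc6 (0.18, SE 0.18, FDR 0.470). Mcm4 (ENSMUSG00000022673, chromosome 16, 15623897 to 15637400) was at 40.5, 37.2, 34.1, and 33.0 CPM in aged sham and at 36.1, 33.6, 38.3, 54.6, and 49.2 CPM in aged bleo. Aged bleo 1 to 3 lay within the aged sham range and aged bleo 4 and 5 above it, and the difference did not pass the test (log2 fold change 0.23, SE 0.15, FDR 0.267).

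The 6 subunits of the ring, which are used in equal number in the protein, were thus unequal as transcripts in aged sham and closer in aged bleo. Mcm4 was the most abundant of the 6 by FPKM in all 9 libraries, and Mcm6 the least abundant in all but aged sham 1, where it was Mcm5. The most abundant subunit exceeded the least abundant 3.89-, 12.8-, 9.45-, and 7.32-fold in aged sham 1 to 4. In aged bleo 1 to 5, the ratio was 3.04, 4.98, 2.59, 1.64, and 1.65. Mcm4 made up 43.0 ± 3.85% (SD, n = 4) of the summed FPKM in aged sham and 29.6 ± 6.73% (SD, n = 5) in aged bleo, while Mcm6 was at 6.38 ± 3.39% and 11.7 ± 2.69% of the sum. These shares are a description, with no test. Aged sham 1 and aged bleo 2 overlapped in this ratio too, since aged sham 1 had the smaller one.

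**Figure D3:**
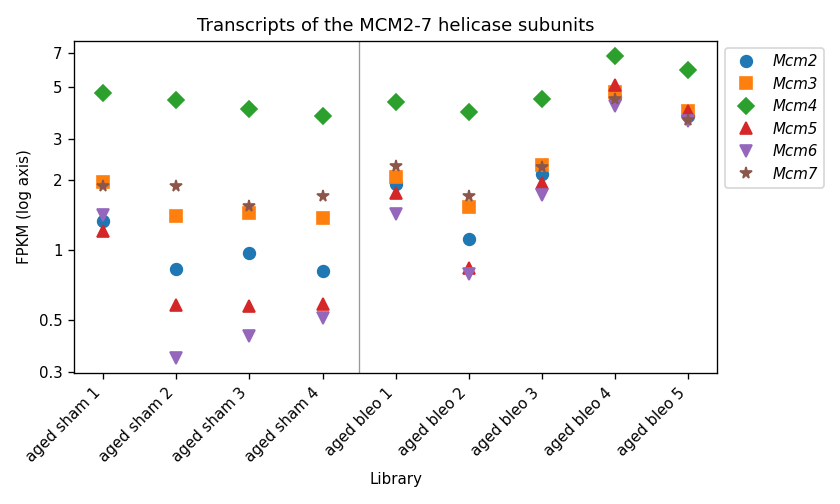
FPKM (y axis, log scale) of the transcripts of the 6 MCM2-7 subunits in each library (x axis). In aged sham 2 to 4 the subunits are spread 7.32- to 12.8-fold, and in aged bleo 4 and 5 they are within 1.65-fold of each other.

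Of the 4 members that activate the helicase, 2 were higher. Mcm10, an initiation factor (ENSMUSG00000026669, chromosome 2, 4989714 to 5012791), was at 1.26, 0.222, 0.136, and 0.363 CPM in aged sham and at 1.38, 0.640, 2.19, 6.45, and 5.44 CPM in aged bleo. It was scarce, at 0.0269 ± 0.0282 FPKM in aged sham (SD, n = 4), and aged sham 1 lay above aged bleo 2. Its log2 fold change was 2.68 (SE 0.85, FDR 0.0357) and 3.73 without aged sham 1. Cdc45, a subunit of the active helicase (ENSMUSG00000000028, chromosome 16, 18780447 to 18811987), was at 3.52, 2.29, 2.94, and 2.52 CPM in aged sham and at 3.93, 2.79, 5.55, 12.6, and 10.4 CPM in aged bleo. All injured libraries but aged bleo 2 exceeded every aged sham library (log2 fold change 1.32, SE 0.43, FDR 0.0404). Without aged sham 2 the FDR of Cdc45 was 0.101 and the call was lost.

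Neither GINS member was called. Gins1 did not pass the test (log2 fold change 0.84, SE 0.43, FDR 0.159), with aged bleo 4 and 5 at 4.49 and 3.57 CPM and the other 7 libraries at 1.01 to 1.79 CPM. Without aged bleo 2, Gins1 passed (1.04, FDR 0.0569). Gins2 (ENSMUSG00000031821, chromosome 8, 120578633 to 120589304) was at 30.6, 38.6, 35.2, and 31.5 CPM in aged sham and at 26.6, 28.3, 27.6, 28.9, and 26.3 CPM in aged bleo. It was the only member lower in every aged bleo library than in every aged sham library, by a small amount (log2 fold change -0.30, SE 0.08, FDR 0.0178) that did not reach 1.5-fold. Of its exon bases, 67.3% are shared with Gse1 on the opposite strand, and Gse1 differed in the same direction (log2 fold change -0.49, SE 0.14, FDR 0.0237). The library kit does not mark the strand, so the reads of these genes cannot be told apart where they overlap.

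Of the 9 members of the clamp, its loader, the polymerases, and primase, which carry out the synthesis itself, 0 were called. Pcna, the sliding clamp (ENSMUSG00000027342, chromosome 2, 132249162 to 132253314), was at 51.6, 48.8, 46.4, and 45.5 CPM in aged sham and at 44.6, 43.4, 43.8, 75.0, and 61.8 CPM in aged bleo. Aged bleo 1 to 3 lay below all aged sham libraries and aged bleo 4 and 5 above all of them, and the difference did not pass the test (log2 fold change 0.16, SE 0.17, FDR 0.495). With the highest FPKM of the 45 members in aged sham (8.41 ± 0.536, SD, n = 4), Pcna was well above the depth limit. Pcna-ps2, a pseudogene in the table that may share reads with it, had a log2 fold change of 0.07 (FDR 0.819). Of the clamp loader, Rfc3 was at 0.64 (SE 0.32, FDR 0.142), Rfc4 at 0.50 (0.28, FDR 0.198), and Rfc5 at 0.50 (0.17, FDR 0.0439) on the scale of log2 fold change. Rfc5 was higher in every aged bleo library (27.9 ± 7.04 CPM, SD, n = 5) than in aged sham (19.7 ± 0.748 CPM, SD, n = 4) but under 1.5-fold. Rfc3 passed the test without aged bleo 2 or 3 (FDR 0.0721 and 0.0903) and Rfc4 without aged bleo 2 (FDR 0.0942). Rfc4 and Rfc5 share 12.7% and 10.7% of their exon bases with Eif4a2 and Wsb2.

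The polymerase alpha and primase complex starts every new strand. Its subunit Pola2 (ENSMUSG00000024833, chromosome 19, 5940543 to 5964206) was at 11.2, 11.8, 11.2, and 10.2 CPM in aged sham and at 10.0, 8.35, 10.1, 14.2, and 11.9 CPM in aged bleo. The injured libraries lay on both sides of the uninjured ones (log2 fold change -0.02, SE 0.15, FDR 0.916). The catalytic subunits Pola1 (-0.15, SE 0.14, FDR 0.458) and Prim1 (0.01, SE 0.24, FDR 0.976) did not pass the test either, nor did Pold1 (-0.10, SE 0.11, FDR 0.513) and Pole (0.51, SE 0.38, FDR 0.321), the catalytic subunits of polymerases delta and epsilon. For Prim1, aged bleo 1 to 3 were at 5.42 to 5.77 CPM, below the 7.22 to 7.98 CPM of aged sham, and aged bleo 4 and 5 at 10.1 and 11.0 CPM, above it. Without aged bleo 4 and 5, Prim1 was lower in aged bleo by -0.43 on the log2 scale (FDR 0.00966), a difference under 1.5-fold.

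Both members that finish Okazaki fragments were higher. Fen1, the flap endonuclease (ENSMUSG00000024742, chromosome 19, 10199132 to 10204169), was at 5.70, 4.06, 5.14, and 4.54 CPM in aged sham and at 6.49, 4.96, 8.78, 16.7, and 13.4 CPM in aged bleo. Aged bleo 2 lay within the aged sham range and the other injured libraries above it (log2 fold change 1.05, SE 0.34, FDR 0.0388). Other genes, chiefly Gm10143 on the opposite strand, overlap 84.2% of the exon bases of Fen1, and Gm10143 was also higher (1.02, SE 0.35, FDR 0.0486), so their reads cannot be told apart. Lig1, the ligase that joins the fragments (ENSMUSG00000056394, chromosome 7, 13277283 to 13311433), was at 16.3, 12.3, 12.8, and 13.1 CPM in aged sham and at 17.7, 13.1, 19.3, 35.3, and 29.9 CPM in aged bleo. Only aged bleo 2 fell within the aged sham range (log2 fold change 0.76, SE 0.27, FDR 0.0555). The call of Lig1 was lost without aged sham 2, 3, or 4 or aged bleo 4 or 5 (log2 fold change 0.54 to 0.74, FDR 0.0950 to 0.127).

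Deoxynucleotide synthesis was represented by 4 members, of which 3 were higher. Rrm2, the small subunit of ribonucleotide reductase made in S phase (ENSMUSG00000020649, chromosome 12, 24708241 to 24714146), was at 7.64, 3.64, 3.52, and 4.24 CPM in aged sham and at 14.4, 5.86, 14.6, 49.5, and 41.7 CPM in aged bleo. Aged sham 1 exceeded aged bleo 2 and no other injured library (log2 fold change 2.40, SE 0.61, FDR 0.0159). Tyms, thymidylate synthase (ENSMUSG00000025747, chromosome 5, 30058202 to 30073617), was at 7.16, 5.53, 5.96, and 6.27 CPM in aged sham and at 11.0, 9.05, 11.9, 21.9, and 19.2 CPM in aged bleo. Here all injured libraries lay above all uninjured ones (log2 fold change 1.23, SE 0.26, FDR 0.00779).

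Rrm1, the large subunit of the reductase (ENSMUSG00000030978, chromosome 7, 102441695 to 102469771), was at 46.0, 36.3, 35.8, and 35.1 CPM in aged sham and at 44.9, 36.0, 48.9, 82.3, and 82.6 CPM in aged bleo. Aged bleo 1 and 2 lay within the aged sham range, and the log2 fold change was 0.62 (SE 0.25, FDR 0.0840). Rrm1 had the highest FDR of the called members and lost its call without aged sham 2, 3, or 4 or aged bleo 4 or 5 (0.46 to 0.60, FDR 0.159 to 0.177). The ratio of Rrm1 to Rrm2 by FPKM was 4.18, 6.90, 7.04, and 5.74 in aged sham 1 to 4 and 2.16, 4.25, 2.32, 1.15, and 1.37 in aged bleo 1 to 5. Rrm2b, the alternative small subunit known from cells outside S phase, was lower in aged bleo by less than 1.5-fold (log2 fold change -0.43, SE 0.14, FDR 0.0391). It made up 29.9 ± 3.74% (SD, n = 4) of the summed FPKM of the 3 subunits in aged sham and 15.7 ± 8.60% (SD, n = 5) in aged bleo, and Rrm2 10.5 ± 2.80% and 29.3 ± 11.9%. Tk1, thymidine kinase, did not pass the test (0.64, SE 0.30, FDR 0.121), but did so without aged sham 1 (FDR 0.0984) and without aged bleo 2 (FDR 0.0418).

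Among the members that copy chromatin and its methylation, 3 of 4 were higher. Uhrf1, which recruits the maintenance methyltransferase to new DNA (ENSMUSG00000001228, chromosome 17, 56303321 to 56323486), was at 10.5, 1.32, 1.56, and 2.32 CPM in aged sham and at 11.4, 5.38, 15.6, 37.3, and 32.3 CPM in aged bleo. Aged sham 1 stood apart from its group at the level of aged bleo 1. The log2 fold change was 2.37 (SE 0.78, FDR 0.0410), 3.56 without aged sham 1, and 2.19 without aged sham 4, when the FDR of 0.101 no longer passed. Chaf1b, a subunit of the histone chaperone CAF-1 (ENSMUSG00000022945, chromosome 16, 93883901 to 93906115), was at 2.15, 1.15, 0.760, and 1.61 CPM in aged sham and at 3.52, 1.65, 3.34, 8.65, and 7.74 CPM in aged bleo. Its groups overlapped only at aged sham 1 and aged bleo 2 (log2 fold change 1.81, SE 0.51, FDR 0.0238). Chaf1a, the large subunit, was higher with no overlap between the groups (1.64, SE 0.37, FDR 0.00996), at 2.75 to 5.46 CPM in aged sham and 5.99 to 19.2 CPM in aged bleo. In the GENCODE M21 annotation, Ubxn6 on the opposite strand overlaps 52.5% of the 8854 exon bases of Chaf1a. The counted Chaf1a has other ends and a length of 3308 bases, so its own overlap is not known.

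Dnmt1, the maintenance methyltransferase itself (ENSMUSG00000004099, chromosome 9, 20907206 to 20959888), was at 47.7, 36.5, 38.0, and 36.6 CPM in aged sham and at 44.2, 38.6, 50.6, 65.3, and 64.4 CPM in aged bleo. It was the most abundant of these 4 members by FPKM (2.64 ± 0.359 in aged sham, SD, n = 4). Aged sham 1 exceeded aged bleo 1 and 2, and the log2 fold change of 0.41 (SE 0.17, FDR 0.0896) was under 1.5-fold. Rbbp4, the histone-binding subunit of CAF-1 and of other complexes, did not pass the test (-0.08, SE 0.09, FDR 0.511).

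Of the 4 E2F members, 2 were higher. E2f1, an activator (ENSMUSG00000027490, chromosome 2, 154559407 to 154569892), was at 14.9, 16.5, 16.3, and 16.1 CPM in aged sham and at 17.7, 13.1, 14.6, 24.5, and 18.7 CPM in aged bleo, with injured libraries on both sides of the uninjured ones (log2 fold change 0.15, SE 0.17, FDR 0.506). E2f2, also an activator (ENSMUSG00000018983, chromosome 4, 136172394 to 136196057), was at 1.42, 1.25, 2.16, and 3.87 CPM in aged sham and at 2.72, 1.88, 3.72, 6.41, and 3.39 CPM in aged bleo. Aged sham 4 exceeded all injured libraries but aged bleo 4, and the log2 fold change was 0.74 (SE 0.42, FDR 0.203), or 1.17 without aged sham 4 (FDR 0.0637).

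Of the repressors, E2f7 (ENSMUSG00000020185, chromosome 10, 110745439 to 110787384) was at 1.74, 0.736, 0.448, and 0.585 CPM in aged sham and at 1.84, 0.977, 3.27, 6.97, and 6.54 CPM in aged bleo. Only aged bleo 2 fell below aged sham 1, and E2f7 was higher by 2.15 on the log2 scale (SE 0.65, FDR 0.0301). E2f8 (ENSMUSG00000046179, chromosome 7, 48866429 to 48881596) was at 1.10, 0.205, 0.312, and 0.948 CPM in aged sham and at 2.47, 1.53, 4.28, 8.98, and 7.56 CPM in aged bleo. Every injured library exceeded every uninjured one, and the log2 fold change of 2.95 was the largest of the 45 members (SE 0.68, FDR 0.0106). Per length, E2f8 was still far below E2f1 in aged bleo, at 0.397 ± 0.266 and 2.43 ± 0.682 FPKM (SD, n = 5). Gm2788, on the opposite strand, overlaps 11.2% of the exon bases of E2f8. Of the other E2F genes, E2f3, the remaining activator, was higher without overlap (8.30 to 11.2 CPM in aged sham, 17.5 to 25.6 CPM in aged bleo, log2 fold change 1.20, SE 0.14, FDR 3.41e-04). E2f4, E2f5, and E2f6 were not called.

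Entry into S phase gave the lowest FDR of all members. Ccne1, cyclin E1 (ENSMUSG00000002068, chromosome 7, 38097984 to 38107534), was at 1.63, 0.838, 0.545, and 0.545 CPM in aged sham and at 3.55, 2.22, 4.28, 11.6, and 9.19 CPM in aged bleo. The groups did not overlap (log2 fold change 2.79, SE 0.58, FDR 0.00671). Cdc25a, the phosphatase that activates the cyclin E kinase (ENSMUSG00000032477, chromosome 9, 109875579 to 109893888), was at 9.68, 10.4, 8.82, and 8.63 CPM in aged sham and at 13.5, 11.4, 14.0, 17.4, and 14.8 CPM in aged bleo. Its groups did not overlap either, and its spread was the narrowest of the called members, since aged bleo 4 exceeded aged bleo 2 by 1.53-fold where the called members' median was 4.58-fold. Its log2 fold change of 0.60 (SE 0.13, FDR 0.00697) was just past 1.5-fold, and it fell under that fold without aged sham 3 or 4 or aged bleo 4 (0.51 to 0.58, FDR 0.00775 to 0.0287). Ccne2, cyclin E2, did not pass the test (0.45, SE 0.23, FDR 0.162), with aged bleo 1 to 3 at 6.47 to 7.27 CPM beside 6.47 to 6.88 CPM in aged sham. Aged bleo 4 and 5 lay above all of these, at 11.9 and 13.2 CPM. By FPKM, cyclin E2 was the more abundant in aged sham (0.800 ± 0.0163 against 0.140 ± 0.0808 for cyclin E1, SD, n = 4), and in aged bleo they were at 1.13 ± 0.421 and 1.01 ± 0.685 (SD, n = 5). Ints8, on the opposite strand, overlaps 17.4% of the exon bases of Ccne2.

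**Figure D4:**
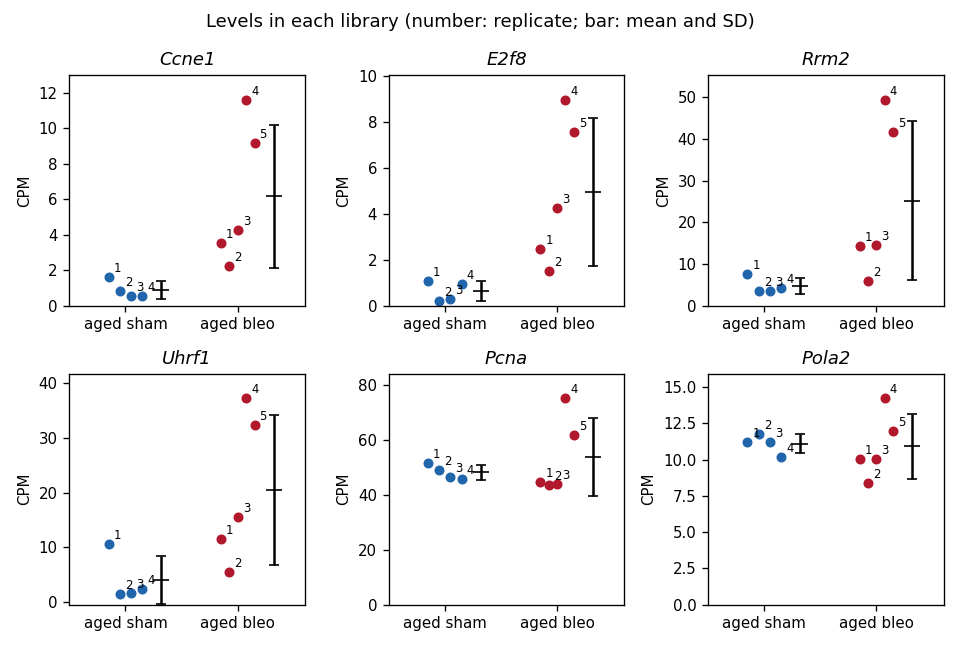
CPM (y axis) of 6 genes in each library of the aged sham and aged bleo groups (x axis), with the replicate number beside each point and the mean and SD beside each group. Ccne1 and E2f8 have no overlap between groups, Rrm2 and Uhrf1 overlap through aged sham 1 and aged bleo 2, and in Pcna and Pola2 the injured libraries lie on both sides of the uninjured ones.

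At the fork checkpoint and in repair, 3 of 5 members were higher. Clspn, which encodes claspin, the adaptor that activates CHK1 (ENSMUSG00000042489, chromosome 4, 126556935 to 126593903), was at 2.49, 0.513, 0.565, and 0.484 CPM in aged sham and at 5.00, 1.90, 5.34, 12.2, and 11.7 CPM in aged bleo. Only aged sham 1 reached the injured libraries, above aged bleo 2 (log2 fold change 2.82, SE 0.71, FDR 0.0149, and 3.79 without aged sham 1). Exo1, an exonuclease of repair and of arrested forks (ENSMUSG00000039748, chromosome 1, 175880581 to 175913489), was at 0.678, 0.137, 0.195, and 0.282 CPM in aged sham and at 1.26, 0.835, 1.66, 4.43, and 4.12 CPM in aged bleo. The groups did not overlap (log2 fold change 2.91, SE 0.66, FDR 0.0100, and 3.58 without aged sham 1).

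Brca1, of homologous recombination and fork protection, was higher by 1.74 on the log2 scale (SE 0.63, FDR 0.0586) and by 2.56 without aged sham 1. At 3.51 CPM, aged sham 1 exceeded aged bleo 1 and 2 (2.44 and 1.95 CPM). The call of Brca1 was lost without aged sham 2, 3, or 4 or aged bleo 4 or 5 (1.42 to 1.62, FDR 0.107 to 0.139). Brca2 did not pass the test (0.21, SE 0.17, FDR 0.362). Rad54l, of homologous recombination (ENSMUSG00000028702, chromosome 4, 116094264 to 116123690), was at 20.0, 19.9, 18.4, and 19.9 CPM in aged sham and at 20.3, 18.1, 21.4, 24.3, and 22.6 CPM in aged bleo. It was the most abundant of the 5 by FPKM, and its groups overlapped (log2 fold change 0.13, SE 0.09, FDR 0.298). Of the exon bases of Rad54l, 15.4% are shared with Lrrc41 on the opposite strand.

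Across roles, the called members were scarcer in aged sham than the others. The median aged sham level was 0.478 FPKM over the 25 called members and 1.04 FPKM over the 20 others, and 20 of the 25 and 9 of the 20 were under 1 FPKM. In aged bleo, the medians were 1.55 and 1.22 FPKM. The called members also differed more between mice of the same group, with aged bleo 4 at a median of 4.58 times aged bleo 2 for the called members and 1.78 times for the others. Aged sham 1 was at a median of 1.70 times the mean of aged sham 2 to 4 for the called members and 1.06 times for the others. These are descriptions, with no test. The calls were made from the same libraries, so these differences may follow in part from the split itself.

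The rest of the replication machinery was followed in a list of 83 further genes, all tested. Of these, 19 (22.9%) were called higher, beside 12.3% of all tested genes. The number called lower was 0 (8 were lower at an unadjusted p under 0.05), and the median log2 fold change was 0.18. Among the largest changes were those of Asf1b, a histone chaperone (log2 fold change 2.89, SE 0.69, FDR 0.0119), and Ticrr, an initiation factor (5.66-fold, log2 SE 0.57, FDR 0.0102). In both, every aged bleo library exceeded every aged sham library, as in 14.5% of the 83 genes and 16.1% of all tested genes. Ticrr and 2 others of the 19 passed the filter on low counts by their aged bleo libraries, with a mean count under 25 in aged sham. By role, 3 of 15 licensing and helicase genes and 2 of 19 polymerase, clamp loader, and RPA genes were higher. So were 1 of 8 nucleotide genes, 2 of 9 chromatin genes, and 6 of 16 checkpoint, cohesion, and repair genes. The last role, of E2F, pocket protein, and cyclin genes, had 5 of 16 higher. The polymerase (10.5%) and nucleotide (12.5%) shares were near the 12.3% of all tested genes.

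Of 30 mitosis genes, 29 (96.7%) were higher (all but Nusap1), beside 12.3% of all tested genes. The number called lower was 0, and the median log2 fold change was 2.67. Cdc25c, the phosphatase that activates the mitotic kinase (3.95, SE 0.99, FDR 0.0150), Bub1, a spindle checkpoint kinase (3.71, SE 1.05, FDR 0.0234), and Nuf2, a kinetochore protein (3.58, SE 0.86, FDR 0.0126), changed most. Cdc25c, too, had a mean count under 25 in aged sham and passed the filter by its aged bleo libraries. The medians of the mitosis genes put the injured libraries in the same order as those of the members. On the scale of log2 CPM relative to the aged sham mean, their median was 1.95, 0.89, 2.29, 3.87, and 3.59 in aged bleo 1 to 5, and 1.32 in aged sham 1 beside -0.50 to -0.34 in aged sham 2 to 4. Aged sham 1 therefore exceeded aged bleo 2 in this median too. Nothing was tested between the lists, whose genes share the same libraries.

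**Figure D5:**
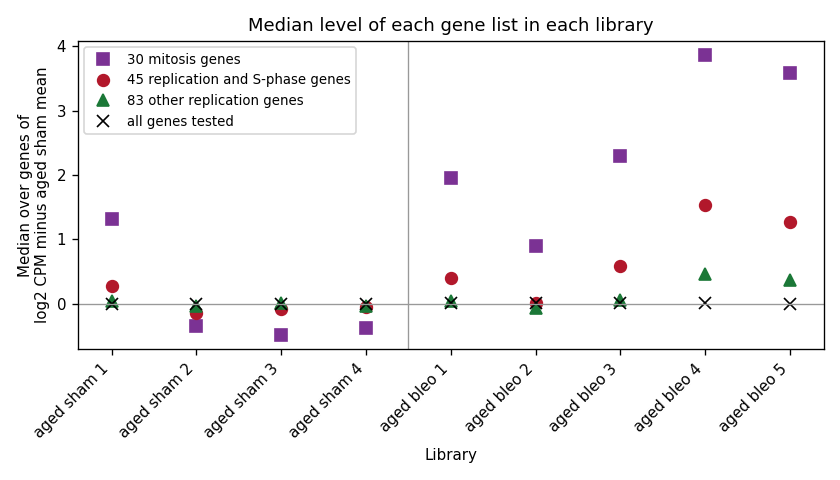
Median over genes (y axis) of log2 CPM minus the gene's aged sham mean, in each library (x axis), for the 45 replication and S-phase genes, 83 other replication genes, 30 mitosis genes, and all tested genes. The mitosis genes reach 3.87 in aged bleo 4 and the 45 genes 1.54, while the median of all tested genes stays near 0 in every library.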

How the data were processed

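For 9 libraries of polyadenylated RNA, the authors deposited counts of reads on 43346 genes (whole numbers, not normalized) and FPKM values, which they scaled to gene length and library size. The submitters' processing notes name bcl2fastq, STAR 2.5.2b, featureCounts of Subread, and mm10/GRCm38. The strand setting of the counting is not given in the sources used here.

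The 45 members and all other lists were chosen with earlier results of these data known. Libraries were grouped by their labels. The counts of genes that averaged 25 or more were scaled by TMM, and edgeR 4.0.16 (glmQLFit, glmQLFTest, R 4.3.3) was applied without covariates, two-sided. Genes were called at FDR under 0.10 and a fold change over 1.5, the thresholds of the study. The count test stands in place of the study's moderated test. FPKM values were only described, or used in alternatives. The scripts were tested on simulated counts. No libraries of a group were duplicates by a chi-square test of their counts.

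Values in every library were printed for, in each role, the member with the highest mean FPKM and the 2 called members with the largest change, and for the 4 E2F factors. The 3 called genes with the largest change were named from the other lists, except for 1 that is not reported here. Further genes beside these (E2f3, the ORC subunits, Rrm2b, Rbbp4, and genes that overlap members) were chosen after their values were seen. Overlaps of exons are from GENCODE M21, whose start and end 37 of 45 members share. The overlaps of some other members are not printed. Limits from counts cover counting error only. Alternatives were DESeq2 1.42.0, limma 3.58.1 on log2 CPM and on log2(FPKM + 0.1 or 1), RLE, scaling by library size alone, all genes without a filter, a minimum of 10 counts per library, FDR under 0.05 with a fold change over 2, each library left out, replicate numbers as a block, and 2 pairs of libraries left out.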

Additional observations from a re-analysis of the deposited data

Results flagged for a closer look

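In 8 of 90 groups of values (45 genes in 2 groups), a single library was farther from the rest of its group than Dixon's test allows at 95%. Chance flags about 1 in 20 groups if they are independent, which genes measured in the same libraries are not. The test was run on CPM without a log scale. In 7 of the 8, the library was aged sham 1, above aged sham 2 to 4. It held Uhrf1 at 10.5 CPM (nearest library 2.32), Clspn at 2.49 CPM (nearest 0.565), Mcm5 at 9.92 CPM (nearest 4.88), and Brca1 at 3.51 CPM (nearest 1.07). It also held Mcm3 at 17.6 CPM (nearest 12.8), Rrm1 at 46.0 CPM (nearest 36.3), and Dnmt1 at 47.7 CPM (nearest 38.0). Besides, Rad54l was at 18.4 CPM in aged sham 3, below the nearest library at 19.9 CPM. The summed B cell markers (10.6 CPM) and mesothelial markers (62.7 CPM) were also highest in aged sham 1 within its group. Its sums of pan-leukocyte (96.3 CPM), macrophage (169 CPM), neutrophil (150 CPM), epithelial (10.1 CPM), and erythroid markers (3.30 CPM) were the lowest of its group. The part of other cells in these values was not tested.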

How the results depend on the processing

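Over all alternatives, 943 log2 fold changes of single members were recomputed, of which 809 kept direction and call, 102 lost the call, 10 gained it, and 22 changed sign, none of these from a called value. No member was called lower under any alternative. DESeq2 called 26 members higher, limma-trend 24, log2(FPKM + 0.1) 22, RLE and library size only 25 each, all genes without a filter 25, a minimum of 10 counts per library 23 of 43, and the stricter thresholds 18. In the same order, 12.6, 11.9, 11.2, 12.2, 12.6, 8.88, 11.4, and 7.25% of all tested genes were called higher. On log2(FPKM + 1), which compresses genes under 1 FPKM, 8 members and 6 other replication genes were called higher, beside 5.69% of all tested genes. In either direction, 1785 of all genes were called there. The stricter thresholds left 12 other replication genes called higher and 2158 of all genes called in either direction.

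With 1 library left out, 17 to 29 members, 16 to 29 other replication genes (29 without aged bleo 2), and 27 to 29 mitosis genes were called higher. Of all tested genes, 11.2 to 13.7% were then called higher, and 3525 to 4597 genes were called in either direction. The members' median ranged from 0.51 to 0.91, and Mcm4's share of the MCM2-7 FPKM from 41.8 to 44.8% in aged sham and 27.0 to 31.2% in aged bleo. The loss of the added pair aged bleo 4 and 5 left 11 members and 11 other replication genes higher and 1 (Cdc7, named after its value was seen) lower, and that of aged sham 4 and aged bleo 4 left 13 members. In these settings, 9.88% and 10.5% of all tested genes were called higher. With replicate numbers 1 to 4 as a block (aged bleo 5 not used), 16 members were called higher, beside 10.7% of all tested genes. The correlations of same-numbered libraries (0.09, 0.06, -0.13, and 0.32) do not show a pairing, and only number 4 correlated best with its own.

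Prim1 was at -0.0599 with limma-trend, -0.0141 on log2(FPKM + 0.1) and -0.21 with the block, and at -0.43 without aged bleo 4 and 5, and -0.12 without aged sham 4 and aged bleo 4. With 1 library left out, Prim1 ranged from -0.159 to 0.113, Pola2 from -0.146 to 0.0589, and E2f1 from -0.00129 to 0.244. Pola2 was at 0.000263 on log2(FPKM + 1). E2f1 was at -0.0823 without aged bleo 4 and 5 and -0.00707 without aged sham 4 and aged bleo 4. Without aged bleo 4 and 5, Orc6 was at -0.12, Mcm4 at -0.0142, Pcna at -0.14, Rfc4 at -0.0312, and Pole at -0.0347, and without aged sham 4 and aged bleo 4 Pcna was at -0.0338. The cause was not tested. At this depth, members such as Exo1 and Mcm10, under 1 CPM in most aged sham libraries, rest on few counts there. The column names carry an unexplained suffix that only aged bleo 4 shares with aged sham.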
